A study of Mus musculus with 2 samples.

Results

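The AP-1 transcription factors measured here are the products of 10 mouse genes: Fos, Fosb, Fosl1 and Fosl2 of the Fos family, Jun, Junb and Jund of the Jun family, Batf and Batf3, and Atf3. They were chosen by gene symbol among the 15574 genes with at least 1 read in either of 2 libraries. Both libraries came from T helper 17 (Th17) cells, which are CD4 T cells defined by their production of IL-17A and IL-17F. One is labelled CREB knockout (CREB KO), the other wildtype. The cells of both were of C57BL/6 background, were grown in vitro from naive T cells for 6 days in IL-23, IL-1 beta, TGF-beta and IL-6, and were stimulated for 4 h with plate-bound anti-CD3 before RNA extraction. No label says how the knockout was made or how many mice stand behind a library. CREB, encoded by Creb1, drives transcription after cyclic AMP and calcium signals, and the study set out to find genes that it regulates in Th17 cells.

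AP-1 factors are basic leucine zipper (bZIP) proteins that bind DNA as dimers. FOS proteins pair with JUN proteins, whereas JUN proteins can also pair among themselves, and BATF proteins pair with JUN proteins in T cells. Signals from the T cell receptor induce several of these genes within minutes, and the transcripts of FOS in particular are short-lived. In mouse Th17 cells BATF, together with IRF4 and JUNB, binds the genes of the Th17 program, and the Fos gene is a long-known target of CREB.

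The knockout-labelled library held 23.9 M counted reads and the wildtype library 26.5 M, and there was 1 library per genotype. There is therefore no replicate error and no p-value, and each difference below lies between 2 libraries rather than between genotypes. Every ratio is labelled knockout over wildtype, with a 95% interval (exact conditional binomial) that covers counting error only. Without molecular identifiers, PCR copies cannot be told from separate molecules, so these intervals may be too narrow even for that. Creb1, the targeted gene, had 25 reads in the knockout-labelled library and 13 in the wildtype library, so its count does not bear out the label. Creb1 has 3 curated RefSeq transcripts, and whether reads shared between transcripts were left out was not tested, so a count this low is a weak check of the label. All 7 T and Th17 cell markers looked up reached a mean of 1 CPM (counts scaled to library size), among them Cd4, Cd3e and Il17f. Of 13 markers of other cell types, 2 did, Cd8b1 and Cd79a. The 13 summed to 11.6 CPM in the knockout-labelled library and 11.1 CPM in the wildtype library. The 7 T and Th17 cell markers were not as close, with sums of 2223 CPM in the knockout-labelled library and 3456 CPM in the wildtype library. Of these 7, 3 were lower by the 1.2-fold rule given below (Il17f, Il17a and Il23r), 0 were higher and 4 were neither. In bulk RNA, a smaller number of expressing cells and less RNA per cell cannot be told apart.

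The DNA just before the start of these genes is shown because CREB binds the cyclic AMP response element (CRE), whose palindrome is TGACGTCA and whose core is TGACG. Sequences and starts are those of RefSeq on GRCm38.p6, and 9 of the 10 genes matched by symbol. The gene positions given further below are from GENCODE M21. The RefSeq starts of Fosb, Batf and Atf3 lie inside those positions, that of Atf3 far inside. Other starts of these genes were not examined. The 250 bases before the start held a CRE core on either strand in 5 of these 9 genes, which were Fos, Fosb, Junb, Batf and Atf3. Of 32544 upstream windows of the same length, 17.8% held one, and of the 7895 windowed genes that reached a mean of 1 CPM, 31.8% did. The full palindrome, which contains the core on both strands, was in none of the 9 and in 1.55% of all windows. Neither the AP-1 element TGANTCA (6.73% of windows) nor the CArG box, the element bound by serum response factor (1.48%), had a match in the 9. Elements farther than 250 bases upstream were not searched, so this does not mean that a gene lacks them. The 140 bases nearest the start follow for the 5 genes with a CRE core, which is in capitals. They are written from 5′ to 3′ on the strand of the gene.
Fos (chr12:85473750-85473889, plus strand): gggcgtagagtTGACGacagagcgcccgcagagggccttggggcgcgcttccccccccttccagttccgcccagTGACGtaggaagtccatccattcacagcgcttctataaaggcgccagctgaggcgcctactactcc
Fosb (chr7:19310046-19310185, minus strand): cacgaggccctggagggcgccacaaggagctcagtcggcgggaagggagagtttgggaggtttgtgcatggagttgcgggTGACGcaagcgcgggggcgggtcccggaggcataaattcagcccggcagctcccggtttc
Junb (chr8:84978749-84978888, minus strand): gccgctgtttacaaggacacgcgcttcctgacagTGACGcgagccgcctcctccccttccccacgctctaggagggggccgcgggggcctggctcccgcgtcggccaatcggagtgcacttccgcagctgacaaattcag
Batf (chr12:85686580-85686719, plus strand): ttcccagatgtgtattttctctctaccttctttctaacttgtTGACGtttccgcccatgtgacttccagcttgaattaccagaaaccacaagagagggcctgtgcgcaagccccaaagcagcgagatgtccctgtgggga
Atf3 (chr1:191183334-191183473, minus strand): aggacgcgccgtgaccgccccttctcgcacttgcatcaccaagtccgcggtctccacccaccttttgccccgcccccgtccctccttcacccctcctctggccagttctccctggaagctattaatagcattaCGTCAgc

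Fos held 2 CRE cores, which began 129 and 66 bases before its start. Fosb held 1 at 60 bases, Junb 1 at 106 and Batf 1 at 98, all on the strand of the gene. In Atf3 the match lay on the other strand, 7 bases before the start. Fosl2, Jun, Jund and Batf3 had no match to these letters in their windows. A match of letters is not evidence of binding.

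**Figure D1:**
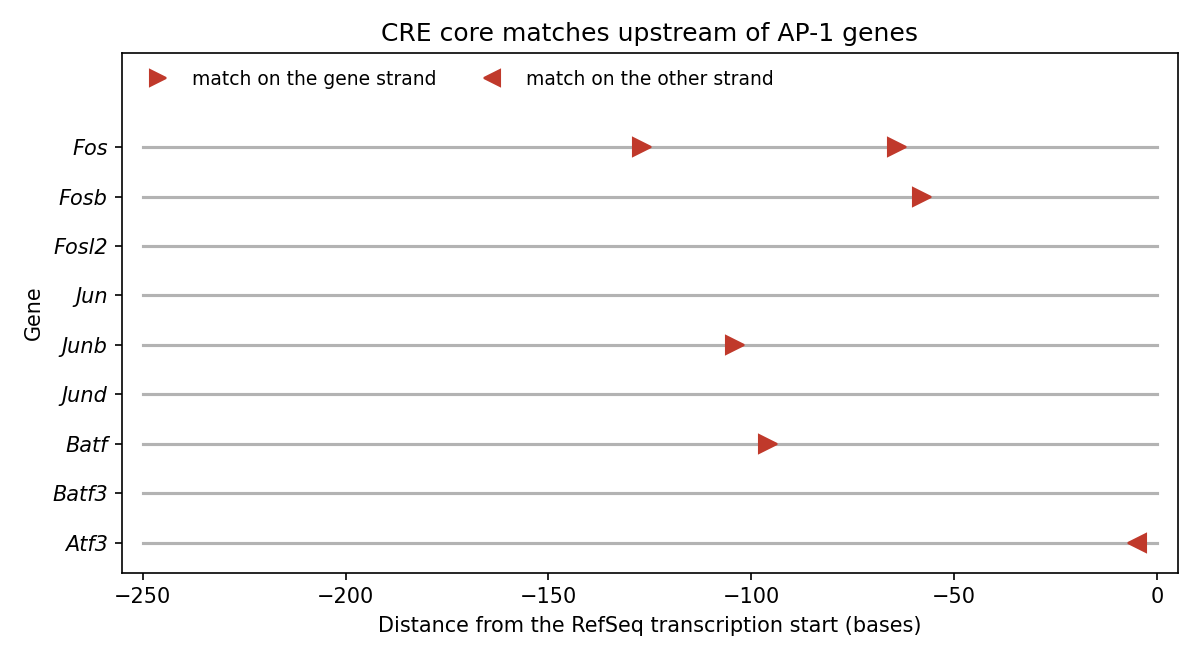
Position of CRE core matches in the 250 bases upstream of 9 AP-1 genes, in bases from the RefSeq transcription start; arrowheads point right for a match on the strand of the gene and left for the other strand. Fos had 2 matches, Fosb, Junb, Batf and Atf3 had 1 each, and the other genes had none.

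Transcript levels of the AP-1 genes spanned more than 2 orders of magnitude at 4 h, and Junb stood far above the rest in both libraries. Levels are given as RPKM, reads per kilobase of GENCODE M21 exon scaled to library size, so that genes of different length can be compared. Junb, whose product pairs with BATF and FOSL2 and is needed by mouse Th17 cells for IL-23-driven disease, reached 620.5 RPKM in the knockout-labelled library and 573 RPKM in the wildtype library. Only 78 of the measured genes in the knockout-labelled library and 87 in the wildtype library had a higher level per length. Batf, which mouse T cells need to become Th17 cells, came next at 70.8 RPKM in the knockout-labelled library, against 80.6 RPKM in the wildtype library. The Junb level was 8.77 times that of Batf in the knockout-labelled library and 7.11 times in the wildtype library.

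Jun, the founding JUN gene, came after Batf in both libraries, at 40.3 RPKM in the knockout-labelled library and 43.7 RPKM in the wildtype library. Junb, Batf and Jun held these places in both libraries with each of 3 definitions of gene length. Next came Atf3, which encodes a stress-induced member of the ATF and CREB group, and Fosl2, which encodes FRA-2, a FOS protein that lacks the strong activation domain of c-FOS. Atf3 had 26.2 RPKM in the knockout-labelled library and 21.2 RPKM in the wildtype library, and Fosl2 had 24.6 and 23.7 RPKM in the same order of libraries. In the knockout-labelled library the counting intervals of Atf3 and Fosl2 overlapped, so these neighbours were not ordered. In the wildtype library Fosl2 was above Atf3, 1.12 times as high.

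The other 4 detected genes were lower. Batf3, known in the mouse for its role in dendritic cells, had 12.9 RPKM in the knockout-labelled library and 12.4 RPKM in the wildtype library. Fos, which encodes c-FOS, had 7.49 RPKM in the knockout-labelled library and 10.5 RPKM in the wildtype library. Fosl1, which encodes FRA-1, had 2.93 RPKM in the knockout-labelled library and 2.10 RPKM in the wildtype library. Fosb had 2.16 RPKM in the knockout-labelled library and 2.39 RPKM in the wildtype library, where its interval overlapped that of Fosl1. The lower places depend on which length is used: with the shortest annotated coding transcript, Fos was last of the 9 in both libraries, below Fosl1 and Fosb. At 4 h the transcript of c-FOS was thus low beside that of FRA-2, 3.28 times lower in the knockout-labelled library and 2.27 times lower in the wildtype library.

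**Figure D2:**
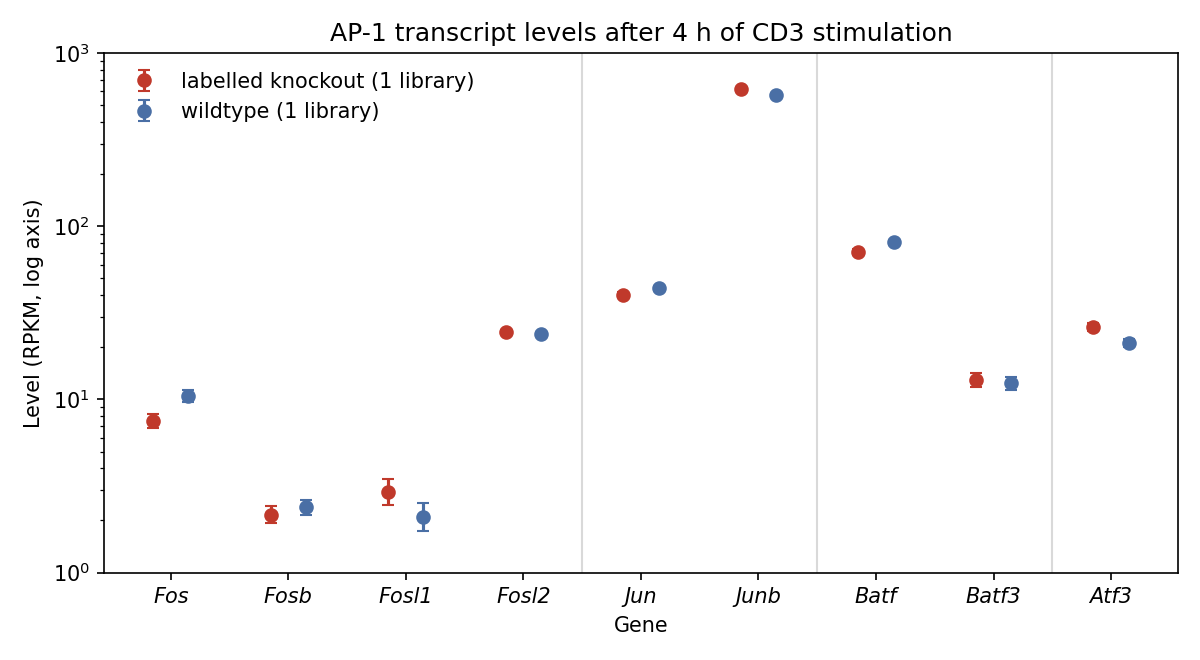
Level of the 9 detected AP-1 genes (RPKM, log axis) in the knockout-labelled library (red, left of each pair) and the wildtype library (blue), with 95% Poisson intervals for counting error as bars. Junb lies at 620.5 and 573 RPKM, above every other gene shown.

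Jund was listed in neither library. It encodes JUND, the JUN protein that is usually present in resting cells. Taken as 0 reads, this allows up to 3 reads, which is 0.0749 RPKM in the knockout-labelled library and 0.0680 RPKM in the wildtype library. This is a fixed limit for a count of 0, and the Poisson interval used for the other levels ends higher, at 0.0921 RPKM in the knockout-labelled library and 0.0836 RPKM in the wildtype library. Its place on GRCm38 (chromosome 8, 70698949 to 70700616, GENCODE M21) is overlapped over 919 bases by the antisense gene Gm11175, which had no reads either. RefSeq annotates 2 curated transcripts for Jund and for Fosb, against 1 for each of the other 8 members. Of the 80 genes in all the AP-1 lists used here, 3 more had no read in either library. These were Mapk9, Nfatc1 and Runx1, with 4, 6 and 4 curated transcripts. Whether reads shared by several transcripts or genes were left out of the counts was not tested, and the 0 of Jund is not read here as absence of its transcript. The level of Fosb, its place and its part in the shares below carry the same limit.

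Summed over the 9 detected genes, the Jun family carried most of the AP-1 level. It made up 81.8% of the summed RPKM in the knockout-labelled library and 80.1% in the wildtype library, with Junb alone at 76.8% and 74.5%. The Batf family held 10.4% in the knockout-labelled library and 12.1% in the wildtype library, the Fos family 4.60% and 5.02%, and Atf3 3.24% and 2.75%. Within the Fos family Fosl2 was the main transcript, with 66.1% of that family's level in the knockout-labelled library and 61.4% in the wildtype library. Fos itself held 20.2% of it in the knockout-labelled library and 27.0% in the wildtype library. These shares leave Jund out, and transcript shares say nothing of the amounts of protein or dimer.

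**Figure D3:**
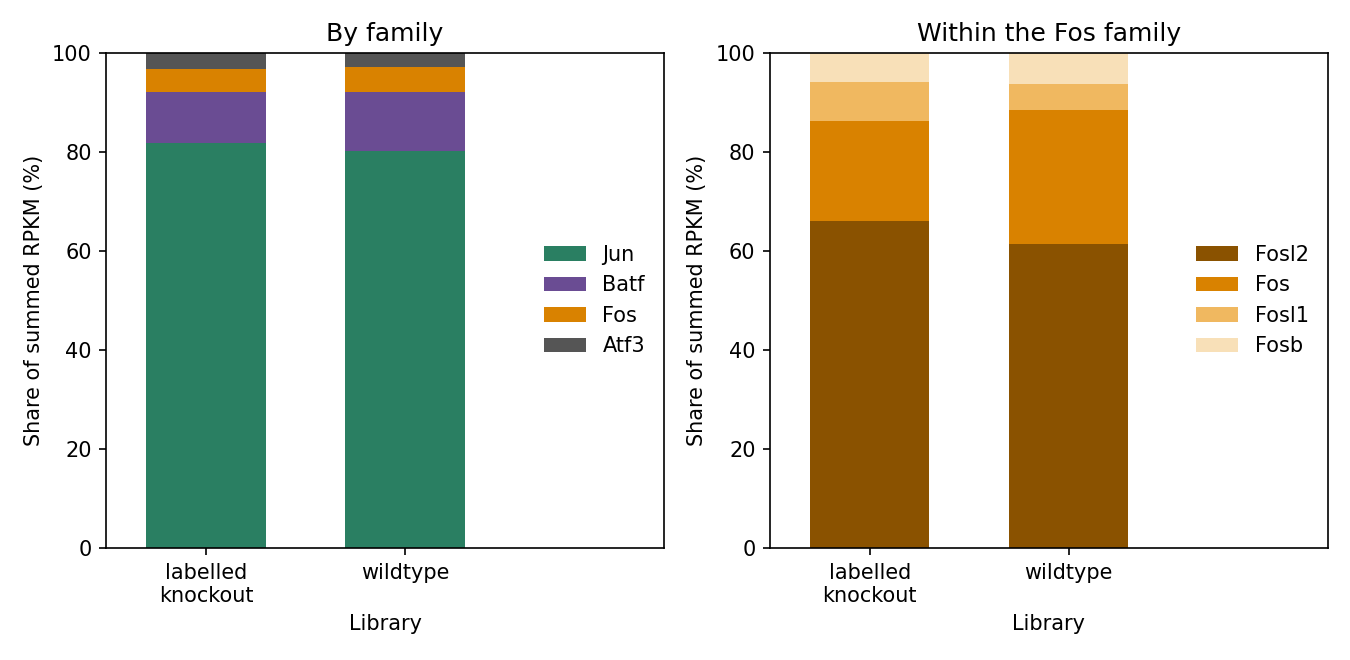
Share of summed RPKM (%) in the knockout-labelled library (left bar) and the wildtype library (right bar): by AP-1 family over 9 genes (left panel), and by gene within the Fos family (right panel). The Jun family holds 81.8% and 80.1%, and within the Fos family Fos holds 20.2% and 27.0%.

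Between the libraries most AP-1 transcripts were close, with Fos lower and Atf3 and Fosl1 higher in the knockout-labelled library. A gene was counted as apart if its ratio reached 1.2-fold, or the stricter 1.5-fold, and its interval excluded 1. Of the 9 measured members, 1 was lower and 2 were higher at 1.2-fold, and 6 were neither. Over all 10462 genes that reached a mean of 1 CPM, 5.48% were lower and 6.19% were higher by the same rule. At 1.5-fold 0 members were apart in either direction, beside 1.5% of all genes lower and 2.48% higher. Counts as small as 1 and 2 of 9 do not set the members apart from these shares. The median log2 ratio of the 9 was 0.05, against -0.01 for all measured genes.

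Fos (chromosome 12, 85473890 to 85477273) had 423 reads in the knockout-labelled library and 651 in the wildtype library. It was 1.40-fold lower in the knockout-labelled library (1.23 to 1.58), the lowest ratio of the 9. Of the 2776 genes within 2-fold of its mean level, 0.973% had a ratio as low or lower, and the log2 ratios of those genes had an SD of 0.19 beside the -0.48 of Fos. Set against each of the other 8 members in turn, which needs no scaling of the libraries, Fos had an interval that excluded 1 every time. That Fos was the lower one each time follows from its lowest ratio, and all 8 contrasts reuse its reads. The difference was largest against Fosl1, which had the highest ratio of the 9. The number of Fos reads per Fosl1 read was 2.96 in the knockout-labelled library and 5.76 in the wildtype library, 1.95-fold lower (1.47 to 2.59). Against Jun, its classical partner, it was 1.29-fold lower (1.13 to 1.47), with 0.137 Fos reads per Jun read in the knockout-labelled library and 0.177 in the wildtype library.

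The other Fos family genes did not share this. Fosb (chromosome 7, 19302696 to 19310051), an early-induced FOS gene like Fos, had 324 reads in the knockout-labelled library and 394 in the wildtype library. Its ratio of 0.906 had an interval that includes 1 (0.780 to 1.05), so no direction can be given. Fosl1 (chromosome 19, 5447547 to 5455946) had 143 reads in the knockout-labelled library and 113 in the wildtype library and was 1.39-fold higher (1.08 to 1.80). Of the 1963 genes within 2-fold of the low mean level of Fosl1, 7.74% had a ratio as high or higher. Fosl1 overlaps Ccdc85b on the other strand over 2767 bases. Ccdc85b had 425 reads in the knockout-labelled library and 454 in the wildtype library, and without a stated strand setting reads of these genes may be mixed. Fosl2 (chromosome 5, 32135801 to 32157842), which holds most reads of the family, had 5711 reads in the knockout-labelled library and 6078 in the wildtype library, a ratio of 1.04 (0.999 to 1.07). Summed over the 4 genes, the family had 6601 reads in the knockout-labelled library and 7236 in the wildtype library, a ratio of 1.01 (0.972 to 1.04). Fosl2 makes up most of both sums, so the lower count of Fos moved them little.

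**Figure D4:**
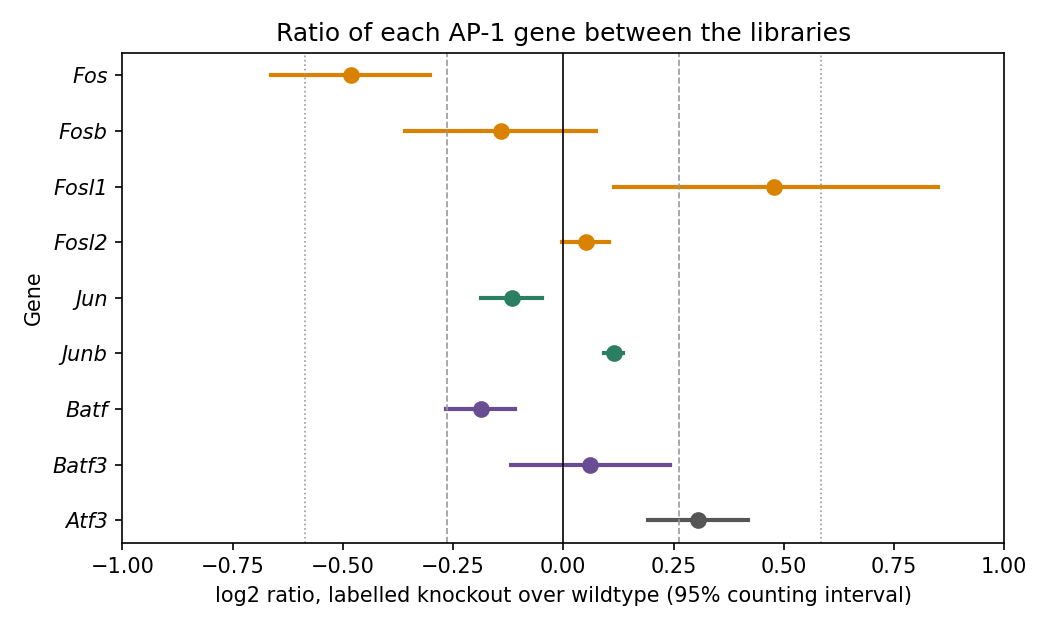
The log2 ratio of each detected AP-1 gene, labelled knockout over wildtype, with its 95% counting interval; dashed and dotted lines mark 1.2-fold and 1.5-fold in each direction, and colours mark the families. Fos lies lowest at -0.48, and Fosl1 and Atf3 lie highest at 0.48 and 0.30.

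The 2 detected Jun genes went opposite ways by small amounts. Jun (chromosome 4, 95049034 to 95052222) had 3083 reads in the knockout-labelled library and 3685 in the wildtype library, a ratio of 0.922 (0.879 to 0.968). Junb (chromosome 8, 84974484 to 84978718) had 34272 reads in the knockout-labelled library and 34901 in the wildtype library, a ratio of 1.08 (1.07 to 1.10). Neither reached 1.2-fold. Relative to Junb, Jun was 1.17-fold lower in the knockout-labelled library (1.12 to 1.23). The narrow interval of Junb reflects its depth. Of the 161 genes within 2-fold of its mean level, 8.07% had a ratio as high or higher. Counted in both directions, 22.4% had a ratio at least as far from 1. The shares given for Fos, Fosl1, Batf and Atf3 count the observed direction only, so the 8.07% is the one to set beside them. The antisense gene Junos, which overlaps Jun over 689 bases, had no reads, and the annotated end of Junb overlaps Prdx2 over 351 bases.

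Of the Batf genes, Batf (chromosome 12, 85686669 to 85709087) had 2389 reads in the knockout-labelled library and 2998 in the wildtype library. Its ratio was 0.878 (0.832 to 0.927), short of 1.2-fold, and 6.00% of the 2900 genes within 2-fold of its mean level were as low or lower. Batf3 (chromosome 1, 191097847 to 191108945) had 496 reads in the knockout-labelled library and 524 in the wildtype library, a ratio of 1.04 (0.921 to 1.18). Batf was 1.19-fold lower relative to Batf3 (1.04 to 1.36). Its count relative to that of its partner Junb was lower as well: there were 14.3 Junb reads per Batf read in the knockout-labelled library and 11.6 in the wildtype library, a ratio of 1.23 (1.17 to 1.30).

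Atf3 (chromosome 1, 191170296 to 191218039) had 1353 reads in the knockout-labelled library and 1207 in the wildtype library and was 1.24-fold higher (1.14 to 1.34). Of the 3406 genes within 2-fold of its mean level, 1.94% had a ratio as high or higher. Atf3 was higher relative to each other member except Fosl1 with an interval that excluded 1. This direction follows from its ratio, which was below that of Fosl1 alone. The contrast with Fos was 1.73-fold (1.49 to 2.00), with 0.313 Fos reads per Atf3 read in the knockout-labelled library and 0.539 in the wildtype library. In all, 26 of the 36 pairs of members had a ratio of ratios whose interval excluded 1, and this again counts sampling error only. The pairs reuse the same few genes, and no such share was computed for pairs of other genes. The count therefore does not show that the members differ more among themselves than other genes do. Fos and Batf lie 209.4 kb apart on chromosome 12, and both had intervals below 1, with Fos 1.23-fold lower than Batf (1.07 to 1.41). Batf3 and Atf3 lie 61.4 kb apart on chromosome 1, and of these Atf3 alone had an interval that excluded 1.

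**Figure D5:**
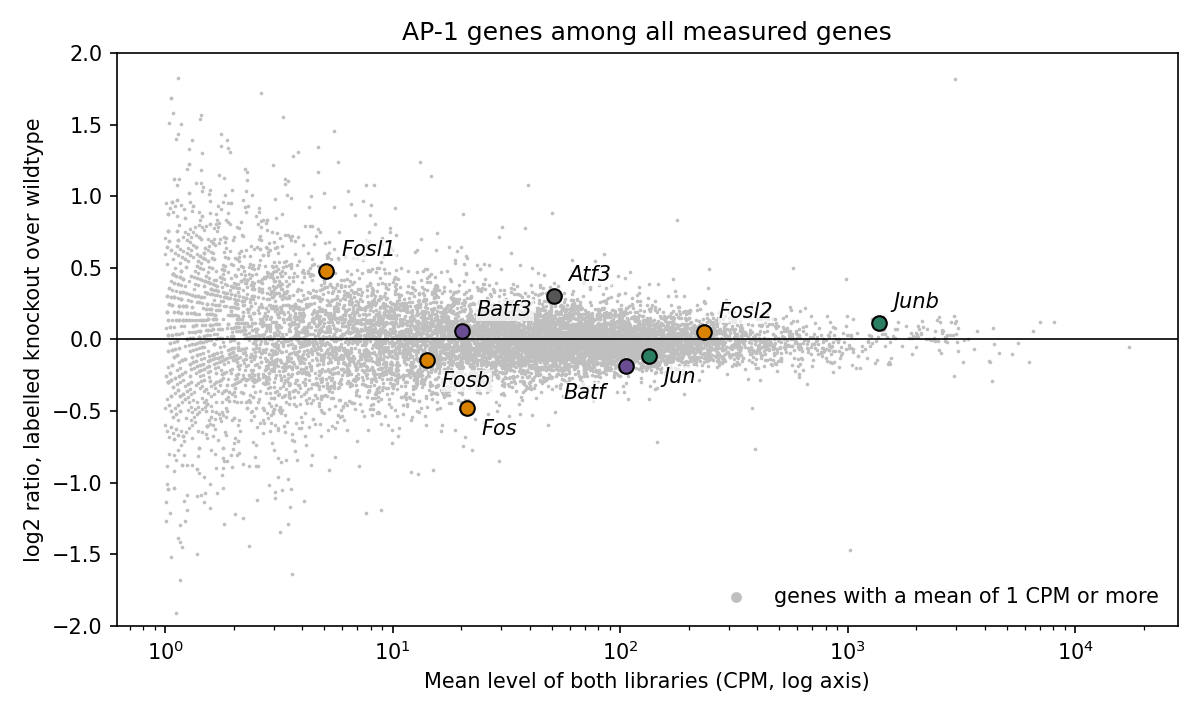
Log2 ratio, labelled knockout over wildtype, against mean level (CPM, log axis) for 10462 genes that reached a mean of 1 CPM (grey) and the 9 detected AP-1 genes (coloured by family); 6 genes lie outside the axis. Fos lies lowest of the members at -0.48, below nearly all genes of its level, and Junb lies farthest right.

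Members with a CRE core, shown above, had ratios on both sides of 1. Of the 5 genes with a CRE core, Fos, Fosb and Batf had ratios below 1, and Junb and Atf3 had ratios above 1, with the interval of Fosb including 1. Of the 3 detected genes with a window but no CRE core, Jun had a ratio below 1. Fosl2 and Batf3 had ratios above 1 with intervals that included 1, so no direction can be given for them. Whether a CRE core bears on the ratio was not tested. Over all measured genes with a window, the median log2 ratio was -0.018 for 2507 genes with a CRE core and -0.0024 for 5388 without. For the full palindrome it was -0.015 for 254 genes with it and -0.0072 for 7641 without.

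Around AP-1, 57 measured genes in 6 lists were read against all measured genes, of which 6.19% were higher and 5.48% were lower by the 1.2-fold rule. Of the 57, 6 were higher (10.5%) and 5 were lower (8.77%). These shares are descriptions, and no list was tested. Upstream, the MAP kinase cascades relay T cell receptor signals to FOS and JUN. This list has 17 genes, of which 15 were measured, and none of those was 1.2-fold apart with an interval excluding 1 (median log2 ratio 0.01). Mapk3, which encodes ERK1 and had the highest level among them, had 65.9 RPKM in the knockout-labelled library and 70.6 RPKM in the wildtype library. Serum response factor and its cofactors switch on Fos after stimulation, and of 7 measured genes among the 8 listed, 2 were higher (28.6%) and 0 were lower (median 0.08). The SRF coactivator gene Mkl1 had 107 reads in the knockout-labelled library and 78 in the wildtype library and was 1.51-fold higher (1.12 to 2.05). The ternary complex factor gene Elk4 was 1.21-fold higher (1.08 to 1.35). Srf itself had 4322 reads in the knockout-labelled library and 4755 in the wildtype library, a ratio of 1.0 (0.961 to 1.04).

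Of the other bZIP genes related to AP-1, 11 of 14 were measured, 1 was higher (9.09%), 1 was lower (9.09%) and 9 were neither (median -0.02). Atf7, which encodes an ATF2-like factor, was 1.59-fold higher (1.31 to 1.93), on 264 reads in the knockout-labelled library and 183 in the wildtype library. Maf, the c-MAF gene, had the highest level of the list, at 34.5 RPKM in the knockout-labelled library and 35.2 RPKM in the wildtype library.

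Of 8 DNA-binding partners of AP-1 and BATF, 6 were measured, 1 was higher (16.7%) and 0 were lower (median 0.04). That gene was Nfatc2, a calcium-regulated factor that binds composite sites with AP-1, at 1.35-fold higher (1.13 to 1.61). Nfatc2 has 16 curated transcripts, Elk4 7 and Atf7 3, so their counts carry the limit named for Jund. Mkl1 had no match by symbol in the annotation used, so whether its count carries this limit is not known. Irf4, the partner of BATF and JUN, was the highest of the list, at 206.5 RPKM in the knockout-labelled library and 202 RPKM in the wildtype library. Of 6 genes that degrade or restrain JUN proteins, 5 were measured, 0 were higher and 1 was lower (20%; median -0.10). It was Fbxw7, a ubiquitin ligase subunit, at 2.07-fold lower (1.14 to 4.04) on 16 reads in the knockout-labelled library and 37 in the wildtype library, and with 3 curated transcripts it carries the same limit. Ndfip1, an activator of the JUN ligase ITCH, had the highest level, at 42.2 RPKM in the knockout-labelled library and 46.1 RPKM in the wildtype library.

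Among T cell genes with known AP-1 or BATF elements, 13 of 17 were measured, 2 were higher (15.4%), 3 were lower (23.1%) and 8 were neither (median -0.14), beside 6.19% and 5.48% of all measured genes. The lower ones were Il17f, at 268.7 RPKM in the knockout-labelled library and 746 RPKM in the wildtype library, Il17a, at 248 and 423 RPKM in the same order, and Il23r, at 8.66 and 12.4 RPKM. Il2 was higher, at 20.3 RPKM in the knockout-labelled library and 13.3 RPKM in the wildtype library. Csf2, named after its values were seen, was the other higher one, at 23.7 RPKM in the knockout-labelled library and 17.1 RPKM in the wildtype library. Il17f was 2.78-fold lower (2.72 to 2.83) and Il17a 1.70-fold lower (1.65 to 1.75). As ratios of labelled knockout over wildtype, both intervals lay below that of every AP-1 gene measured. Batf, Jun and Junb, whose products act at these loci in mouse Th17 cells, were short of 1.2-fold. The intervals of Batf (0.832 to 0.927) and Jun (0.879 to 0.968) lay below 1, and that of Junb (1.07 to 1.10) above it. They cover counting error only. Whether these differences bear on Il17f, Il17a or Il23r was not tested.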

How the data were processed

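The authors deposited whole-number counts of uniquely assigned reads per gene symbol, without normalization, per the file headers. Tools named in the submitters' processing notes are HTSeq and bcl2fastq, with mm10 as the build. No source used here gives the aligner, annotation or strand setting. Each header total equals the sum of its counts, and genes listed in 1 library only were taken as 0 in the other. TMM factors from edgeR 4.0.16 in R 4.3.3 scaled the library sizes, and each ratio included a prior count of 0.5. With 1 library per group no edgeR test could be fitted. Intervals at 95% are exact conditional binomial for ratios and for ratios of ratios, and exact Poisson for levels. RPKM used the union of GENCODE M21 exons, and promoter sequences are from RefSeq on GRCm38.p6. Genes entered with a mean of 1 CPM or more. In each list around AP-1, the genes named are up to 4 past 1.2-fold, by size, and the one of highest level. The members, lists, fold limits and motifs were chosen with earlier results of these data known, and the comparison with genes within 2-fold of a member's level was added after the data were seen. Protein sequences were not analysed here. Values of some genes that these rules would name are not reported here. The call rule and intervals were tried on simulated Poisson counts, the same counting error that the intervals assume. The simulation held no PCR copies and no differences between cultures, so it says nothing of those. Alternatives were other scalings, a prior count of 5, thinning, other filters and other gene lengths. Python 3.11.15 with numpy 2.4.6, scipy 1.17.1, pandas 2.3.3 and matplotlib 3.10.9 was used.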

Additional observations from a re-analysis of the deposited data

How the results depend on the processing

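All 45 recomputed member ratios (9 genes, each with total counts, DESeq2 1.42.0 size factors, upper quartiles, a prior count of 5 and a thinned wildtype library) stayed within the main interval. For the scalings this was nearly fixed in advance. Relative to total counts, the factor between the libraries was 1.005 with TMM and 1.006 with DESeq2. No paired analysis was possible because each group has 1 library, and for the same reason no replicate could be left out and no DESeq2 test run. The number of members at least 1.2-fold higher dropped to 0 when the whole interval had to lie beyond the fold, which is stricter by construction, while Fos remained lower. With a mean of 10 CPM or more, 3.76% of all genes were 1.2-fold higher and 4.19% lower, and 0.319% were higher and 0.236% lower at 1.5-fold. Of the 8 members at that level, 1 was higher and 1 lower at 1.2-fold. Places in the order of levels moved with gene length, which enters them directly. With the longest transcript, in the knockout-labelled library, Fosl2 was at place 4, Atf3 at 5, Fosb at 8 and Fosl1 at 9. With the shortest coding transcript, Fosl2 was at 4, Atf3 at 5, Fosl1 at 7, Fosb at 8 and Fos at 9 in that library. In the wildtype library Batf3 was then at 5, Atf3 at 6, Fosb at 7, Fosl1 at 8 and Fos at 9. Family shares with the longest transcript, in the knockout-labelled library and then the wildtype library, were 80.4% and 78.4% for Jun, 11.9% and 13.9% for Batf, 4.99% and 5.38% for Fos, and 2.75% and 2.33% for Atf3. As shares of reads without length they were 77.5% and 76.3%, 5.99% and 6.97%, 13.7% and 14.3%, and 2.81% and 2.39%. Depth limits Fosl1 and Fosb most, and 1 library per genotype limits every comparison.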
